A study of Mus musculus with 74 samples.

Results

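Gene expression in late culture of T helper (Th) cells was compared between 73 h and 120 h after activation. All 4 cultures at these times were taken, with 8 arrays at 73 h and 8 at 120 h, which gives 16 of the 74 arrays in the series. Each array at 120 h was paired with the array of its own culture and experiment at 73 h, which gives 8 pairs from 4 cultures and 2 experiments. Where levels before or between these times are given, the 2 arrays of naive cells at 0 h, 8 arrays at 48 h, and 8 at 96 h serve as reference.

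The cells were naive CD4+ CD62Lhi T cells of Balb/c mice aged 5 to 8 weeks, sorted from pooled spleen and lymph node and activated with plate-bound anti-CD3 and soluble anti-CD28. Th0 cells (anti IFNg, anti IL4, anti IL12) received blocking antibodies alone, Th1 cells IL-12 with anti IL4, Th2 cells IL-4 with anti IL12 and anti IFNg, and Th1/2 hybrid cells (labelled ThMix) both IL-12 and IL-4. On day 2 of culture the cells were moved to a new plate and split. All groups thus share the strain, the activation, and the splitting, and differ by time and by the added cytokines and antibodies. Each value is the level of an RNA in a whole culture, so that fewer cells with a transcript and less of it in each cell cannot be told apart.

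An activated T cell leaves the resting state, grows, and divides. During this phase, E2F factors drive the genes of DNA replication, MYC drives the building of ribosomes, and the amino acid and one-carbon enzymes governed by ATF4 supply the material. Resting T cells instead hold transcription factors such as KLF2 and FOXO1, which maintain receptors for IL-7 and for exit from tissue, and proteins such as TXNIP, which limits glucose uptake. TCR signals induce a short-lived wave of early factors of the EGR and AP-1 families.

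The genes of DNA replication were lower at 120 h than at 73 h nearly throughout. Several of their promoters hold E2F letters, while promoters of mitotic genes, whose median change was smaller, hold the CHR element read by the DREAM complex. Both kinds are printed from the RefSeq promoter table (build GRCm38.p6) up to the transcription start, in lower case, 5′ to 3′ on the gene's strand, with the matched letters in capitals. The first 5, for replication genes, are the 160 bases before the start of a chromatin assembly factor (Chaf1a), the loader of the replicative helicase (Cdc6), 2 subunits of that helicase (Mcm5 and Mcm6), and a subunit of its GINS partner (Gins3).
Chaf1a promoter, chr17:56040256-56040415, plus strand: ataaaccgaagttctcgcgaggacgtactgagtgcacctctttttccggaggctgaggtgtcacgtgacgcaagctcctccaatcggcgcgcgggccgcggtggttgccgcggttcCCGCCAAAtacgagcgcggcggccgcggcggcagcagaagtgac
Cdc6 promoter, chr11:98907991-98908150, plus strand: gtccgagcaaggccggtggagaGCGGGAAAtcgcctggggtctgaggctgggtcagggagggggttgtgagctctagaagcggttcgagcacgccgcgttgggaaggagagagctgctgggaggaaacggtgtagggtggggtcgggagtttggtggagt
Mcm5 promoter, chr8:75109349-75109508, plus strand: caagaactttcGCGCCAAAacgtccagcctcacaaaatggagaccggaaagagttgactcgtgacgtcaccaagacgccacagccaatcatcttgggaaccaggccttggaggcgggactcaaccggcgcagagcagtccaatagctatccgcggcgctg
Mcm6 promoter, chr1:128359706-128359865, minus strand: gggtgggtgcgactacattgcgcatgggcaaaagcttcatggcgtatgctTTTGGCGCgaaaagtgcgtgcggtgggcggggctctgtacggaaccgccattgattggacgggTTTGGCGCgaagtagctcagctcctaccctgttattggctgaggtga
Gins3 promoter, chr8:95633399-95633558, plus strand: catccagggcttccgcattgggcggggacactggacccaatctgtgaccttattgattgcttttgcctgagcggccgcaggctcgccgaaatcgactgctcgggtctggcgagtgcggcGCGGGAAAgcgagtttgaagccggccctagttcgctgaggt
For mitotic genes, the 100 bases before the start of the spindle motor gene Kif11, the mitotic kinase gene Cdk1, and the Cdc20 and Ube2c genes of cyclin destruction show the CHR letters.
Kif11 promoter, chr19:37376282-37376381, plus strand: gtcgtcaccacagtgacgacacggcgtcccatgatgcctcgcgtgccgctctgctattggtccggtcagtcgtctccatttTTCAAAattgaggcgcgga
Cdk1 promoter, chr10:69352913-69353012, minus strand: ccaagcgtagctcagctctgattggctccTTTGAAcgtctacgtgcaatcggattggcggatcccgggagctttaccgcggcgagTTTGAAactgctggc
Cdc20 promoter, chr4:118437344-118437443, minus strand: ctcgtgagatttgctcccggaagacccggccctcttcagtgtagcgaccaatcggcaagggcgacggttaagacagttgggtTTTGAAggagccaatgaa
Ube2c promoter, chr2:164769829-164769928, plus strand: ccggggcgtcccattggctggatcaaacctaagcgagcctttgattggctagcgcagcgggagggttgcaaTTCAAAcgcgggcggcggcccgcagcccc
E2F was searched on both strands as TTTGGCGC, TTTCCCGC, TTTGGCGG, and TTTCCCGG, from 250 bases before to 50 after each start. Of 41 measured replication genes 35 had a promoter in the table, and 14 of these (40%) held such letters, against 1 of 29 (3.45%) of the mitotic genes and 5.92% of the 11117 promoters of all genes tested. CHR, searched as TTTGAA and TTCGAA, was found in 25 of 29 mitotic promoters (86.2%), 10 of 35 replication promoters (28.6%), and 17.3% of all. The CCAAT box was held by 75.9% of mitotic, 60% of replication, and 42.7% of all promoters. A match of letters is a description of the promoter and not of binding.

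Across the 13817 genes tested, 1674 rose (12.1%) and 2581 fell (18.7%) from 73 h to 120 h. A gene is said to have risen or fallen where limma's paired test on log2 values passed an adjusted p of 0.05 (Benjamini-Hochberg over all genes). Changes are means of the 8 pairs on the log2 scale, given with their standard error (SE, n = 8 pairs), and the median change of all genes was -0.01. Most changes were small: the median size among called genes was 0.36, and 109 genes rose and 25 fell at least 2-fold. Of the genes that rose, 956 were up in all 8 pairs, and of those that fell, 1584 were down in all 8. The groups of 8 arrays did not overlap for 637 genes (4.61%).

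The experiments were also tested apart. With experiment 1 alone, 825 genes rose (5.97%) and 1044 fell (7.56%), and with experiment 2 alone, 1774 rose (12.8%) and 2703 fell (19.6%). Of the genes that rose or fell with experiment 1 alone, 86.5% and 92.9% had a mean change of the same sign in experiment 2, which had no part in choosing them, against 66.7% of all genes with the same sign in both. In the other direction these shares were 82.8% and 86.5%. In each experiment alone, 521 genes rose and 775 fell. Across genes, which are not independent replicates, the mean changes of both experiments correlated with Pearson's r = 0.62. Changes of different cultures had a median r of 0.67 within an experiment and 0.43 between experiments. The paired p takes the cultures of an experiment as independent. With the 4 changes of each experiment averaged, only 2 values remain and no gene passed (limma, 1227 genes up and 1784 down at an unadjusted p under 0.05). With the experiment as a random block, 1262 genes rose and 2035 fell.

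**Figure D1:**
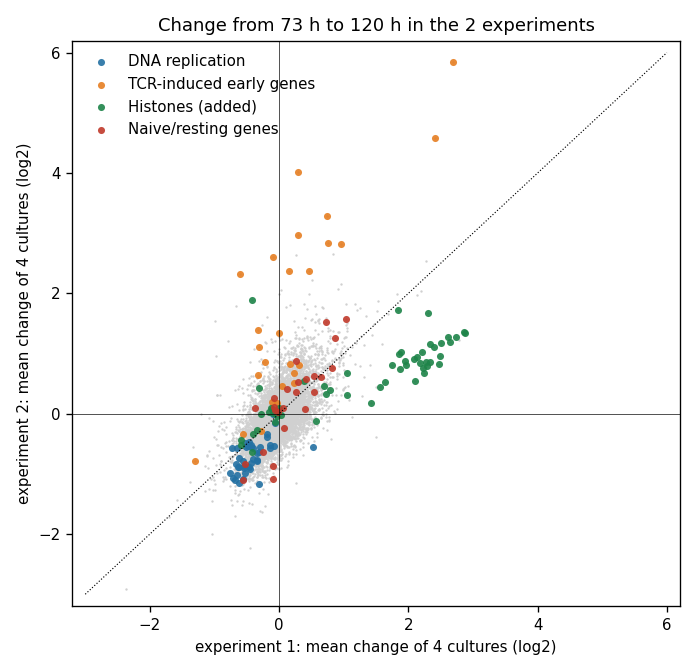
Mean change from 73 h to 120 h of the 4 cultures in experiment 1 (horizontal axis) and experiment 2 (vertical axis), both on the log2 scale. Each point is a gene, 4 gene lists are coloured, and the dotted line marks equal change. TCR-induced early genes lie above that line (list medians 0.10 and 1.23) and histone genes below it (1.75 and 0.68).

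Of 46 listed genes of DNA replication and nucleotide synthesis, 41 were measured, since Pola1, Pole2, and Slbp did not pass the filter on dim probes and the others were not analysed here. Of the 41, 38 fell (92.7%, against 18.7% of all genes) and none rose, with a median change of -0.58. All 8 pairs were down for 35 of them, against 1632 of all 13817 genes. For 27 the arrays of both times did not overlap, against 4.61% of all genes in either direction. Mcm5, a subunit of the MCM helicase that opens the DNA, had log2 levels from 13.52 to 13.88 (median 13.71) at 73 h and from 12.61 to 13.12 (median 13.05) at 120 h. All 8 arrays at 120 h lay below all 8 at 73 h, and Mcm5 fell by 0.72 ± 0.07 (1.65-fold lower, adjusted p = 8.6e-05). It had stood at 11.04 (median) at 0 h and 13.50 at 48 h, so that most of its rise after activation was kept.

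The largest falls of the list were those of Gins2, Gins1, Tyms, Mcm10, and Prim2. Gins2, a member of the GINS complex of the moving replication fork, had levels from 10.78 to 11.11 (median 11.00) at 73 h and from 9.83 to 10.37 (median 10.04) at 120 h. It fell by 0.90 ± 0.09 (adjusted p = 6.8e-05), without overlap. Tyms, which makes thymidylate for DNA, had levels from 11.81 to 12.54 (median 12.25) at 73 h and from 10.95 to 11.76 (median 11.30) at 120 h. This gene also showed no overlap and fell by 0.89 ± 0.10 (adjusted p = 1.1e-04). Gins1, of the same complex as Gins2, fell by 0.89 ± 0.08, Mcm10, which fires the helicase, by 0.87 ± 0.06, and the primase subunit gene Prim2 by 0.84 ± 0.07, each in all 8 pairs. The genes whose promoters are printed fell by 0.76 ± 0.06 (Chaf1a), 0.75 ± 0.14 (Cdc6), 0.66 ± 0.09 (Mcm6), and 0.56 ± 0.09 (Gins3). The remaining 3 were not called: the DNA polymerase subunit gene Pold2 changed by -0.11 ± 0.07 (adjusted p = 0.29), the kinase regulator gene Dbf4 by -0.06 ± 0.05 (adjusted p = 0.49), and the sliding clamp gene Pcna by -0.02 ± 0.17 (adjusted p = 0.96). For Pcna the experiments differed in sign, with 0.52 in experiment 1 and -0.55 in experiment 2.

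Among the 4 cultures, the median change of the replication genes was -0.61 in Th0, -0.60 in Th1, -0.69 in Th2, and -0.54 in Th1/2 hybrid cells. None of the 41 genes passed the test of culture by time, which 0.181% of all genes passed. With so few passing, this count does not show that the cultures changed alike. The list's median was -0.46 in experiment 1 and -0.73 in experiment 2, and 30 or 39 members fell when only experiment 1 or only experiment 2 was used. At 120 h the list still stood a median of 1.48 above its level at 0 h, compared with 2.04 at 73 h.

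Of 17 measured G1 and S phase cyclins, CDKs, and E2F factors, 10 fell (58.8%, against 18.7% of all genes) and 1 rose. Their median change was -0.24. Ccne2 and Ccne1, the E cyclins that start S phase with CDK2, fell by 0.87 ± 0.13 (adjusted p = 6.4e-04) and 0.67 ± 0.08 (adjusted p = 2.0e-04). Ccne1 had levels from 9.27 to 9.88 (median 9.58) at 73 h and from 8.68 to 9.12 (median 8.93) at 120 h, which do not overlap. The phosphatase gene Cdc25a fell by 0.54 ± 0.08, Cdk4, partner of the D cyclins, by 0.52 ± 0.07, and the S phase factor gene Mybl2 by 0.44 ± 0.09. E2f1, the activator of replication genes, fell by 0.39 ± 0.08 (adjusted p = 0.0051), while E2f2, E2f3, E2f7, and E2f8 were not called, nor were Ccnd1 and Ccnd3. Cdk6 was the member that rose, by 0.32 ± 0.07 (adjusted p = 0.0080). Experiment 1 alone gave 4 falls here, and experiment 2 alone 11.

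The median change of mitotic genes was closer to 0, a difference from the replication genes that was not tested. Of 34 measured, 12 fell (35.3%, against 18.7% of all genes), 1 rose, and 21 were not called, with a median of -0.14. Kif11, which drives the spindle poles apart, had levels from 10.60 to 11.01 (median 10.84) at 73 h and from 10.16 to 10.78 (median 10.37) at 120 h and fell by 0.39 ± 0.09 (adjusted p = 0.0070). Its arrays overlapped, and 7 of 8 pairs were down. Cdk1, the kinase that starts mitosis, fell by 0.36 ± 0.10 (adjusted p = 0.016) and Plk1, a polo-like kinase, by 0.36 ± 0.06 (adjusted p = 0.0014). The kinesin gene Kif2c fell by 0.33 ± 0.08 and the spindle pole kinase gene Aurka by 0.29 ± 0.10, each in 6 of 8 pairs. Cdc20 (0.00 ± 0.06, adjusted p = 0.98) and Ube2c (0.23 ± 0.09, adjusted p = 0.080), whose promoters are printed, were not called, and Cenpf, a kinetochore gene, rose by 0.29 ± 0.07. With either experiment alone, 5 mitotic genes fell, as did 5 without Th0, 4 without Th2, and 4 without Th1/2 hybrid cells. Without Th1 cells, 16 fell. The list's median was -0.14 in Th0, 0.12 in Th1, -0.27 in Th2, and -0.18 in Th1/2 hybrid cells. Of its genes, 0 passed the test of culture by time, which 0.181% of all genes passed, so the count does not show a like change. The list stood 3.74 above its 0 h level at 73 h and 3.61 at 120 h.

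**Figure D2:**
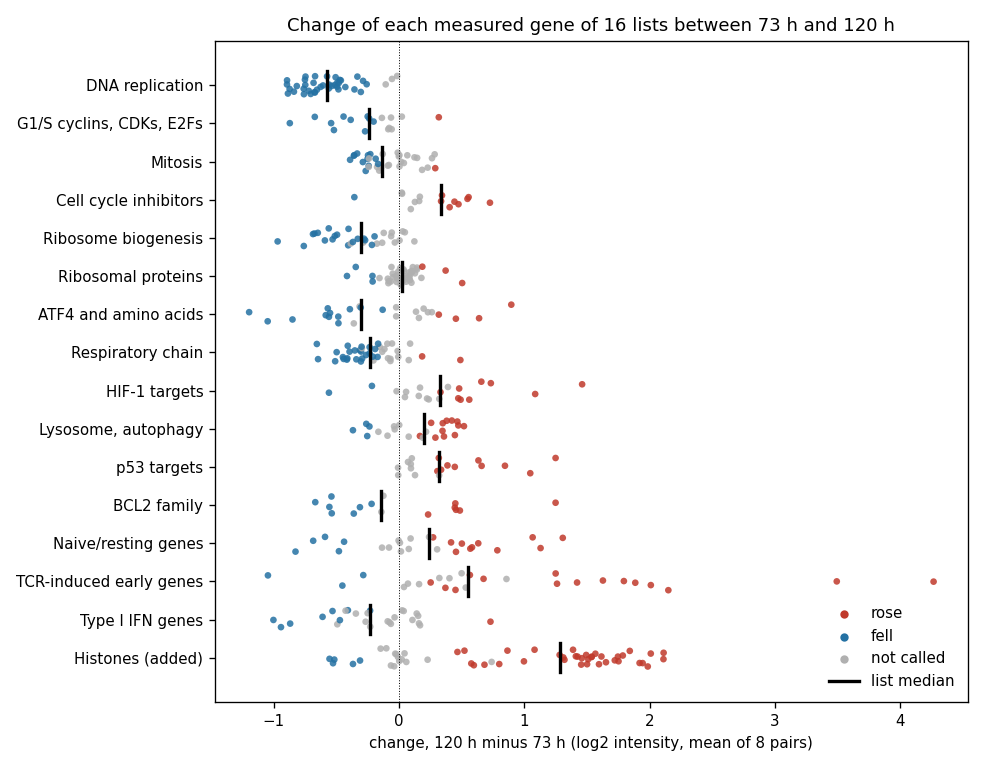
Change from 73 h to 120 h of each measured gene in 16 lists (horizontal axis, log2 intensity, mean of 8 pairs), with genes that rose in red, fell in blue, and were not called in grey, and the list median as a black bar. DNA replication lies left of 0 (median -0.58), mitosis close to it (-0.14), and the histone genes right of it (1.28).

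Inhibitors of the cell cycle moved the other way. Of 15 measured, 8 rose (against 12.1% of all genes) and 1 fell, with a median of 0.34. Tob1, an antiproliferative gene of resting T cells, had levels from 7.75 to 8.67 (median 8.52) at 73 h and from 8.59 to 9.77 (median 9.03) at 120 h and rose by 0.73 ± 0.11 (adjusted p = 7.2e-04). The highest array at 73 h overlapped the lowest at 120 h, and all 8 pairs were up. Cdkn1c (p57) rose by 0.56 ± 0.11, Tob2 by 0.55 ± 0.13, the cyclin G2 gene Ccng2 by 0.47 ± 0.13, and the antiproliferative gene Btg1 by 0.44 ± 0.12. Cdkn1b (p27), the CDK inhibitor of quiescent cells, rose by 0.40 ± 0.08 (adjusted p = 0.0023), and Cdkn1a (p21) by 0.34 ± 0.11 (adjusted p = 0.043). The pocket protein gene Rbl1 fell by 0.36 ± 0.05. Only 3 inhibitors rose with experiment 1 alone, and without Th1 or without Th1/2 hybrid cells 5.

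In the MYC network, 4 genes of opposing MAX partners rose and Myc did not pass. Of 9 measured genes, 4 rose (44.4%, against 12.1% of all genes). Mxd4 rose by 0.93 ± 0.11 (adjusted p = 2.1e-04), Mxi1 by 0.73 ± 0.10, Mxd1 by 0.71 ± 0.16, and Mnt by 0.32 ± 0.07. Mxd4 had levels from 9.78 to 11.39 (median 10.56) at 73 h and from 11.14 to 11.82 (median 11.47) at 120 h, with all 8 pairs up. Max, the shared partner, fell by 0.29 ± 0.07. Myc itself changed by 0.27 ± 0.12 (adjusted p = 0.11), up in 6 of 8 pairs.

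Most genes that build ribosomes fell, while the ribosomal proteins did not move as a group. Of 30 measured ribosome biogenesis genes, 18 fell (60%, against 18.7% of all genes) and none rose, with a median of -0.31. The list stood at a median of -0.26 from its 0 h level at 73 h and at -0.48 at 120 h. Its median thus moved away from the level of naive cells, and 10 of the 30 genes came nearer to it. Rrp12, which exports ribosomal subunits, had levels from 9.63 to 11.39 (median 10.54) at 73 h and from 9.04 to 10.34 (median 9.61) at 120 h and fell by 0.97 ± 0.12 (adjusted p = 2.1e-04). The arrays overlapped, and all 8 pairs were down. Gar1, of the pseudouridylation complex, fell by 0.76 ± 0.11, the assembly factor gene Mrto4 by 0.69 ± 0.08, the RNA methyltransferase gene Nop2 by 0.68 ± 0.13, and the rRNA processing gene Heatr1 by 0.65 ± 0.14. The nucleolar genes Npm1 (0.00 ± 0.08) and Dkc1 (-0.03 ± 0.05) were not called. Experiment 1 alone gave 6 falls and experiment 2 alone 22, where 7.56% and 19.6% of all genes fell. Of 46 ribosomal protein genes, 3 rose (6.52%, against 12.1% of all genes) and 4 fell (8.7%, against 18.7%), with a median of 0.03. Rpl22 rose by 0.50 ± 0.09, Rpl24 by 0.37 ± 0.05, and Rps16 by 0.19 ± 0.05, while Rpl13a fell by 0.42 ± 0.06, Rplp0 by 0.35 ± 0.08, Rps26 by 0.21 ± 0.06, and Rpl21 by 0.21 ± 0.07. Such genes have many near-identical pseudogenes, whose transcripts a probe may share.

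Of 25 genes of the ATF4 response and amino acid supply, 12 fell (48%, against 18.7% of all genes) and 4 rose (16%, against 12.1%). The median was -0.31, with -0.14 in experiment 1 and -0.34 in experiment 2. With experiment 1 alone, and with all 74 arrays, 7 fell. Chac1, which degrades glutathione, had levels from 9.73 to 11.27 (median 10.51) at 73 h and from 8.59 to 10.09 (median 9.40) at 120 h and fell by 1.20 ± 0.21 (adjusted p = 0.0017). The serine hydroxymethyltransferase genes of cytosol and mitochondria, Shmt1 and Shmt2, fell by 1.05 ± 0.15 (adjusted p = 4.8e-04) and 0.85 ± 0.15 (adjusted p = 0.0013). Phgdh, the first enzyme of serine synthesis, fell by 0.59 ± 0.07, and Cth, which makes cysteine, by 0.57 ± 0.06. Shmt1 and Shmt2 did not overlap between the times, Chac1 did, and all 8 pairs were down for each. Atf4 itself changed by 0.16 ± 0.08 (adjusted p = 0.18). The related factor gene Atf5 rose by 0.90 ± 0.10 (adjusted p = 1.4e-04), followed by the lipoprotein receptor gene Vldlr (0.64), Cebpb (0.45), and Sesn2 (0.32).

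Subunits of the mitochondrial respiratory chain were lower as well. Of 40 measured genes, 24 fell (60%, against 18.7% of all genes) and 2 rose, with a median of -0.24. Ndufv1, of complex I, had levels from 12.53 to 13.16 (median 12.92) at 73 h and from 12.02 to 12.46 (median 12.23) at 120 h and fell by 0.66 ± 0.10 (adjusted p = 6.5e-04), without overlap. Ndufa4 fell by 0.65 ± 0.09, Cox5b of complex IV by 0.51 ± 0.05, cytochrome c (Cycs) by 0.50 ± 0.11, and Atp5b of the ATP synthase by 0.45 ± 0.06. The complex III genes Uqcrq and Uqcrh rose by 0.49 ± 0.16 and 0.18 ± 0.05. In experiment 1 alone 9 members fell, and in experiment 2 alone 27. Of 20 chaperone genes, 8 fell (40%, against 18.7% of all genes) and none rose (median -0.18). The falls were led by Hspd1 (0.56 ± 0.14 lower on the log2 scale), Hsph1, Cct6a, Cct3, and Cct8. Chaperone falls numbered 1 in experiment 1 alone, 11 in experiment 2 alone, and 2 without Th1 cells. Of 18 cholesterol synthesis genes, 6 fell (33.3%, against 18.7% of all genes) and none rose (median -0.15). Mvk, the mevalonate kinase gene, fell by 0.44 ± 0.06 (adjusted p = 4.2e-04), and Tm7sf2, Lss, Ebp, and Mvd by less. Falls of cholesterol synthesis genes numbered 1 with experiment 1 alone, 7 with experiment 2 alone, and 3 with no replicate block. The sterol element, searched as TCACNCCAC, was in 0 of 15 of their promoters and in 1.43% of all.

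Early genes of TCR signalling showed the largest rises of the whole comparison. Egr1, a zinc finger factor made within minutes of TCR signals, had levels from 8.45 to 9.50 (median 8.96) at 73 h and from 11.03 to 15.33 (median 13.16) at 120 h. All 8 arrays at 120 h lay above all 8 at 73 h, and it rose by 4.27 ± 0.51 (19.3-fold, adjusted p = 1.8e-04). Egr1 had been at a median of 13.51 at 0 h and 13.31 at 48 h, and lay at 8.96 at 73 h and 8.82 at 96 h. The sources used here do not state how cells were handled between culture and lysis at each time. Fos, an AP-1 subunit, had levels from 8.09 to 10.18 (median 8.71) at 73 h and from 10.57 to 14.17 (median 12.85) at 120 h, also without overlap, and rose by 3.50 ± 0.34 (adjusted p = 6.8e-05). Fosb rose by 2.15 ± 0.59, and the phosphatase gene Dusp2, which inactivates MAP kinases, by 2.01 ± 0.43. Dusp1, another such phosphatase, rose by 1.80 ± 0.32, and Zfp36, which destabilizes cytokine mRNAs, by 1.89 ± 0.30 (adjusted p = 8.8e-04).

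In all, 15 of the 26 TCR-induced early genes rose (12.1% of all genes did) and 3 fell, with a median of 0.55. These rises were larger in experiment 2, a difference that was not tested. The list's median was 0.10 in experiment 1 and 1.23 in experiment 2, and 6 members rose with experiment 1 alone, 21 with experiment 2 alone. Egr1 changed by 2.69 in experiment 1 and 5.84 in experiment 2, and Fos by 2.41 in experiment 1 and 4.59 in experiment 2. The activation marker gene Cd69 changed by -0.10 in experiment 1 and 2.60 in experiment 2, so that its mean rise of 1.25 came from experiment 2. Nr4a1 (0.07 ± 0.06) and Nr4a3 (0.04 ± 0.08), early nuclear receptors of TCR signalling, were not called, nor were Junb (0.40 ± 0.23) and Egr3 (0.86 ± 0.46). The genes that fell were Irf4 (-1.05), a factor of activated T cells, its partner Batf (-0.45), and Ier3 (-0.29).

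Promoters of early genes are known for the CArG box (CC, 6 A or T, GG), where serum response factor binds. It was found in 3 of 21 promoters of the list (14.3%) and in 1.66% of all promoters. The 100 bases before the start of Zfp36, which rose in both experiments, and of Egr2, which changed by 0.15 in experiment 1 and 2.37 in experiment 2, show it in capitals. The motif was added after the rise of these genes was seen.
Zfp36 promoter, chr7:28379229-28379328, minus strand: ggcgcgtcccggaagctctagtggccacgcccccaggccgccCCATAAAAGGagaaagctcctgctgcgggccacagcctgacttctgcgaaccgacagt
Egr2 promoter, chr10:67537770-67537869, plus strand: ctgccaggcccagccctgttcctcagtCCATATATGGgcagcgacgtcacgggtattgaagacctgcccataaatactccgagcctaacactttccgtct

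Genes of naive and resting T cells rose in part. Of 25 measured, 11 rose (44%, against 12.1% of all genes) and 5 fell (20%, near the 18.7% of all genes). The median was 0.24, with 0.13 in experiment 1 and 0.26 in experiment 2. Txnip, which binds thioredoxin and limits glucose uptake, had levels from 11.80 to 13.19 (median 12.38) at 73 h and from 13.28 to 14.20 (median 13.74) at 120 h. The arrays of both times did not overlap, and Txnip rose by 1.31 ± 0.10 (2.47-fold, adjusted p = 2.2e-05). Pik3ip1, an inhibitor of PI3K, had levels from 8.40 to 9.57 (median 8.87) at 73 h and from 9.84 to 10.24 (median 10.03) at 120 h, again without overlap, and rose by 1.13 ± 0.16 (adjusted p = 4.4e-04). Klf2, the quiescence factor, rose by 1.07 ± 0.14 (adjusted p = 3.2e-04), with levels from 9.49 to 11.92 (median 11.06) at 73 h and from 11.09 to 12.65 (median 12.10) at 120 h. Its arrays overlapped, and all 8 pairs were up.

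Il7r, the IL-7 receptor gene, rose by 0.78 ± 0.18 (adjusted p = 0.0077) in 7 of 8 pairs, and Rasgrp2, a regulator of integrin activation, by 0.63 ± 0.07. Further rises were those of Id3 (0.58), Tsc22d3 (0.57), Slfn2 (0.50), the survival gene Bcl2 (0.45), Tgfbr2 (0.42), and Foxo3 (0.27). Members that fell were Actn1 (-0.83), an actin linker, the ATP receptor gene P2rx7 (-0.69), Klf3 (-0.59), Dapl1 (-0.48), and Foxo1 (-0.44), the factor that drives Klf2 and Il7r. In experiment 1 alone 9 members rose and 1 fell. Ccr7, the homing receptor of naive cells, changed by 0.01 ± 0.10 (adjusted p = 0.93), Satb1 by 0.01 ± 0.05, Bach2 by -0.00 ± 0.06, and Lef1 by 0.30 ± 0.11, none of them called. Of 7 measured GIMAP genes, GTPases of resting lymphocytes, Gimap6 and Gimap9 rose (0.47 and 0.48), and Gimap8 and Gimap5 fell (-0.51 and -0.25). Each direction held 28.6% of the list, against 12.1% of all genes rising and 18.7% falling.

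The return towards 0 h can be described with arrays that the paired test did not use. Of 1093 genes at least 2-fold lower at 48 h than at 0 h, 496 rose from 73 h to 120 h (45.4%) and 55 fell. Of 1333 genes at least 2-fold higher at 48 h, 685 fell (51.4%) and 119 rose. At a split of 1.5-fold these shares were 35.6% and 50%, and at 4-fold 55.6% and 52.5%. At the 2-fold split, among the remaining 11391 genes, 9.3% rose and 16.2% fell. At 120 h, 74.3% of the genes lower and 74.2% of those higher at 48 h lay nearer to their 0 h level than at 73 h, against 51.3% of the rest. The return was incomplete for the genes named above: Txnip reached a median of 13.74, with 15.02 at 0 h, and Klf2 reached 12.10, with 14.35 at 0 h. The naive and resting list stood at a median of -1.25 from its 0 h level at 73 h and at -1.29 at 120 h, so that its median came no nearer, although 16 of the 25 genes did.

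**Figure D3:**
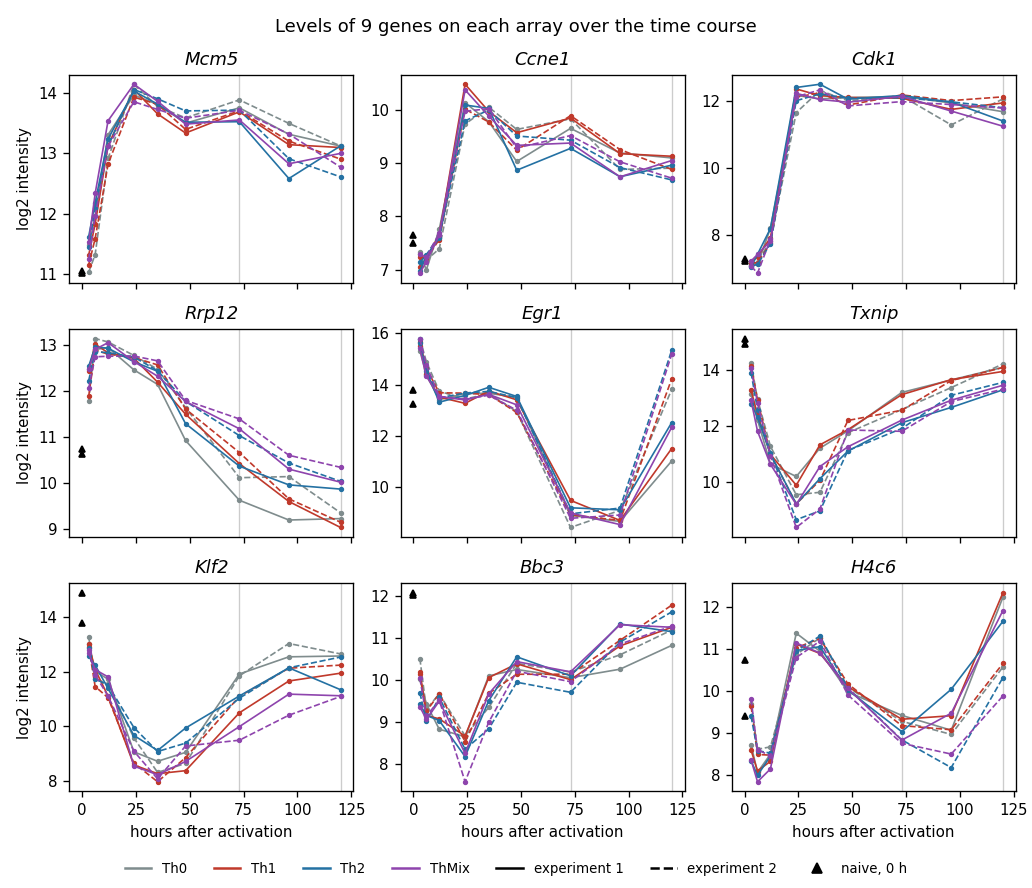
Log2 intensity (vertical axes) of 9 genes on each array against hours after activation (horizontal axes), with a line for each culture and experiment and triangles for naive cells at 0 h. Grey vertical lines mark 73 h and 120 h. Mcm5 and Ccne1 lie lower at 96 h and 120 h than at 73 h, Txnip and Klf2 rise from their low point at 24 to 35 h, and Egr1 and H4c6 rise at 120 h.

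Targets of HIF-1, the factor of low oxygen that also acts in activated T cells, rose in part. Of 20 measured outside glycolysis, 9 rose (45%, against 12.1% of all genes) and 2 fell (10%, against 18.7%), with a median of 0.33. P4ha2, a collagen prolyl hydroxylase, had levels from 8.92 to 10.80 (median 9.68) at 73 h and from 10.66 to 11.64 (median 11.35) at 120 h and rose by 1.46 ± 0.24 (adjusted p = 0.0010). Ndrg1 had levels from 11.46 to 12.37 (median 11.93) at 73 h and from 12.45 to 13.61 (median 13.02) at 120 h, without overlap, and rose by 1.09 ± 0.16 (adjusted p = 5.2e-04). Mxi1 rose by 0.73 ± 0.10, the growth factor gene Vegfa by 0.66 ± 0.12, and P4ha1 by 0.56 ± 0.13. Ddit4, an mTORC1 inhibitor, fell by 0.56 ± 0.17, and the peptide hormone gene Adm by 0.22 ± 0.07. HIF letters (ACGTG or GCGTG) were in 94.1% of these promoters and 92.9% of those of glycolysis, but also in 61.8% of all. Of 16 glycolysis genes, 3 rose (18.8%, against 12.1% of all genes) and 2 fell (12.5%, against 18.7%), with a median of 0.02. The glycolysis median was 0.24 in Th0, 0.23 in Th1, -0.15 in Th2, and -0.21 in Th1/2 hybrid cells, a difference that was not tested. Aldoc, an aldolase, rose by 1.09 ± 0.17 (adjusted p = 8.6e-04), the glucose transporter gene Slc2a3 by 0.48 ± 0.14, and Pfkfb3 by 0.21 ± 0.05. Pkm and Ldha fell by 0.24 ± 0.08 and 0.18 ± 0.06.

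Of 24 lysosome and autophagy genes, 12 rose (50%, against 12.1% of all genes) and 4 fell (16.7%, against 18.7%), with a median of 0.20. Map1lc3b, which coats autophagosomes, rose by 0.52 ± 0.07 (adjusted p = 4.2e-04), the autophagy receptor gene Sqstm1 by 0.47 ± 0.12, the cathepsin gene Ctss by 0.47 ± 0.15, the starter kinase gene Ulk1 by 0.45 ± 0.10, and Gabarapl1 by 0.42 ± 0.10. Ctsz, Atp6v0d1, Lamp1, and Mcoln1 fell by 0.37 ± 0.10, 0.26 ± 0.05, 0.25 ± 0.07, and 0.24 ± 0.06. The rises numbered 2 with experiment 1 alone, and 6 without Th1 cells. Among lipid genes, Elovl6, which lengthens fatty acids, rose by 1.03 ± 0.19 (adjusted p = 0.0023) and the sterol exporter gene Abcg1 by 1.11 ± 0.18 (adjusted p = 9.2e-04). Of 11 fatty acid synthesis genes 3 rose and 3 fell (27.3% each, against 12.1% and 18.7% of all genes). Of 4 sterol efflux genes 1 rose (25%, against 12.1%). In the endoplasmic reticulum list of 17 genes, 4 rose, led by Dnajb9 (0.85), and 4 fell, led by Sdf2l1 (-0.94). Each count was 23.5% of the list, against 12.1% of all genes rising and 18.7% falling.

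The BCL2 family moved in both directions. Of 15 measured, 6 rose (40%, against 12.1% of all genes) and 7 fell (46.7%, against 18.7%). Without Th0 or without Th1 cells, 3 fell. Bbc3 (PUMA), a BH3-only inducer of cell death, had levels from 9.70 to 10.19 (median 10.07) at 73 h and from 10.81 to 11.77 (median 11.24) at 120 h, without overlap, and rose by 1.25 ± 0.11 (2.38-fold, adjusted p = 5.1e-05). The BH3-only genes Bik, Bcl2l11 (BIM), and Pmaip1 (NOXA) rose by 0.49 ± 0.06, 0.45 ± 0.07, and 0.44 ± 0.11, and the protective Bcl2 by 0.45 ± 0.07. Bcl2l1 (BCL-XL), a protective gene of activated T cells, had levels from 9.01 to 9.54 (median 9.34) at 73 h and from 8.28 to 9.07 (median 8.73) at 120 h and fell by 0.67 ± 0.07 (adjusted p = 1.1e-04). Bcl2a1b, Bcl2a1d, Bcl2l2, and Bid fell by 0.56 ± 0.15, 0.54 ± 0.15, 0.54 ± 0.08, and 0.36 ± 0.11. By culture, Bcl2a1d changed by -1.09 in Th0, -0.84 in Th1, -0.42 in Th2, and 0.19 in Th1/2 hybrid cells. Its change differed between cultures with and without IL-4 (limma, adjusted p = 0.0197). Bcl2a1b and Bcl2a1d are near-identical copies, and their probes may share signal. Of 18 p53 targets, several of which also belong to the lists above, 10 rose (55.6%, against 12.1% of all genes). None of them fell (against 18.7%), and their median was 0.32. With experiment 2 alone, 6 rose and 1 fell. After Bbc3 came Gadd45a (1.05 ± 0.19), Plk2 (0.85 ± 0.14), Phlda3 (0.66 ± 0.20), and Trp53inp1 (0.63 ± 0.10). Mdm2, the p53 antagonist, rose by 0.31 ± 0.07.

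Receptors of activation were lower in part. Of 21 measured activation, costimulatory, and checkpoint receptors, 7 fell (33.3%, against 18.7% of all genes) and 2 rose (9.52%, against 12.1%). Their median change was -0.13. Without Th0 cells 4 fell, and without Th1 cells 3. Tfrc, the transferrin receptor of dividing cells, had levels from 13.00 to 14.76 (median 13.70) at 73 h and from 12.38 to 13.62 (median 12.92) at 120 h and fell by 0.88 ± 0.12 (adjusted p = 4.1e-04) in all 8 pairs, although the arrays overlapped. Cd83, Icos, Btla, and Tnfrsf4 (OX40) fell by 0.58 ± 0.18, 0.56 ± 0.17, 0.51 ± 0.10, and 0.36 ± 0.09. Cd27, the costimulatory receptor of naive cells, rose by 0.65 ± 0.11 (adjusted p = 0.0010) and Tnfrsf9 (4-1BB) by 0.40 ± 0.10. Il2ra (-0.06 ± 0.10), Cd44 (-0.00 ± 0.07), and Pdcd1 (0.03 ± 0.05) were not called. Of 13 γc cytokine receptor and SOCS genes, 5 rose (38.5%, against 12.1% of all genes) and 1 fell (7.69%, against 18.7%). Jak1 (0.54), Jak3 (0.51), and Socs2 (0.43) were among the rises, and Stat5a fell by 0.26 ± 0.07.

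Lineage genes changed little as groups when the cultures were pooled. Of 18 Th1 genes, 3 rose (16.7%, against 12.1% of all genes) and 3 fell (16.7%, against 18.7%), with a median of 0.03. The median of these Th1 genes was -0.13 in Th0, -0.18 in Th1, 0.11 in Th2, and 0.32 in Th1/2 hybrid cells. It was -0.15 in experiment 1 and 0.15 in experiment 2, and these differences of the list were not tested. Il12rb1, a chain of the IL-12 receptor, fell by 0.82 ± 0.13 (adjusted p = 8.3e-04), and Tbx21, the gene of T-bet, by 0.61 ± 0.16 (adjusted p = 0.013), both in all 8 pairs, and Hlx fell by 0.45 ± 0.14 in 7 of 8. Il18r1, the IL-18 receptor gene, rose by 0.90 ± 0.13 (adjusted p = 4.9e-04), Stat4 by 0.46 ± 0.10, and Fasl by 0.44 ± 0.13. Ifng changed by -0.33 ± 0.36 (adjusted p = 0.57). Of 12 Th2 genes, Il4 (0.65 ± 0.13 higher, adjusted p = 0.0030) and Gata3 (0.29 ± 0.08 higher) rose, a share of 16.7% near that of all genes. With experiment 1 alone, and with no replicate block, 0 Th2 genes rose. Among 10 cytotoxic genes, 3 rose (30%, against 12.1% of all genes) and 1 fell (10%, against 18.7%). Besides Fasl, Prf1 (perforin) rose by 1.59 ± 0.25 (adjusted p = 8.5e-04) and Ctsw, a cathepsin of killer cells, by 1.43 ± 0.27 (adjusted p = 0.0026). Klrk1 fell by 0.65 ± 0.19 with the cultures pooled. By culture, Klrk1 changed by -1.21 in Th0, -1.32 in Th1, 0.05 in Th2, and -0.12 in Th1/2 hybrid cells (limma's F-test of culture by time, adjusted p = 0.049). Of 20 chemokine receptor, integrin, and homing genes, 6 rose (30%, against 12.1% of all genes) and none fell. The rises were led by Cxcr4 (0.86), Gpr183 (0.66), Selplg (0.48), Itgav (0.44), and Itgb7 (0.42). Of the 20 genes, 1 rose with experiment 1 alone.

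Some type I interferon-induced genes fell. Of 26 type I interferon-stimulated genes, 8 fell (30.8%, against 18.7% of all genes) and 1 rose, with a median of -0.23. Isg15 had levels from 8.32 to 14.03 (median 10.89) at 73 h and from 8.00 to 12.54 (median 9.58) at 120 h and fell by 1.00 ± 0.16 (adjusted p = 0.0011). Its arrays overlapped widely, and all 8 pairs were down. Mx2, Usp18, Oasl1, and Ifit2 fell by 0.94 ± 0.28, 0.87 ± 0.17, 0.61 ± 0.16, and 0.53 ± 0.14, and Isg20 rose by 0.73 ± 0.20. These falls were not seen without the pairing: 0 members passed in a limma fit with no replicate block, and 0 in a fit of all 74 arrays. Without Th0 or without Th1 cells, 3 fell. The list's median was -0.56 in Th0, -0.36 in Th1, and 0.04 in Th1/2 hybrid cells, and was close to 0 in Th2. Of 20 genes of IFN-γ-induced GTPases and antigen presentation, 4 fell (20%, near the 18.7% of all genes, with a list median of 0.03), led by Gbp5 (-0.97), Irgm2 (-0.40), and Igtp (-0.36), and the class I genes H2-K1 (0.69) and H2-D1 (0.46) rose.

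The change was also tested within each culture. With 2 pairs per culture and a spread shared over the cultures, 201 genes rose (1.45%) and 261 fell (1.89%) in Th0, 459 (3.32%) and 438 (3.17%) in Th1, 230 (1.66%) and 263 (1.9%) in Th2, and 292 (2.11%) and 355 (2.57%) in Th1/2 hybrid cells. Of these, 44 rose and 53 fell in every culture. The change differed between cultures for 25 genes (0.181%, limma's F-test), with 1039 genes at an unadjusted p under 0.05. The contrast of cultures with IL-4 (Th2, Th1/2) against those without (Th0, Th1) found 78 genes with a higher change (0.565%) and 56 with a lower one (0.405%). The contrast of cultures with IL-12 (Th1, Th1/2) against those without found 0 genes either way (0%). Here 632 genes had an unadjusted p under 0.05. Chance alone gives such a p to about 1 in 20 of the 13817 genes, for this count and for that of 1039. The cultures without IL-12 also held anti IL12 and anti IFNg, and those without IL-4 held anti IL4. Cytokine and antibody therefore cannot be told apart in these contrasts.

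Among genes whose largest and smallest culture change lay at least 1 apart, the 10 with the smallest p are described by their change in each culture. Adgre1, the F4/80 gene, changed by 0.26 in Th0, -0.22 in Th1, 2.58 in Th2, and 2.85 in Th1/2 hybrid cells (adjusted p = 0.0043). Sln, a regulator of the calcium pump, changed by 0.03 in Th0, -0.28 in Th1, 3.28 in Th2, and 2.07 in Th1/2 hybrid cells. Myl10, a myosin light chain gene, rose most in Th0 and Th1 cells, with 3.72 in Th0, 2.34 in Th1, 1.01 in Th2, and 1.14 in Th1/2 hybrid cells. Elovl6 did likewise, with 1.76 in Th0, 1.54 in Th1, 0.51 in Th2, and 0.32 in Th1/2 hybrid cells. Selp, which encodes P-selectin, and Zbtb32, a repressor induced in activated T cells, fell most in Th1 cells: Selp changed by -1.26 in Th0, -2.15 in Th1, 0.28 in Th2, and -0.43 in Th1/2 hybrid cells, and Zbtb32 by -2.09 in Th0, -2.50 in Th1, -0.44 in Th2, and -1.82 in Th1/2 hybrid cells. Drc1 stood out by its rise in Th1 cells, with 1.15 in Th0, 3.03 in Th1, 1.10 in Th2, and 0.63 in Th1/2 hybrid cells. Nrep (1.80 in Th1, 0.28 in Th2) and Aqp9, a glycerol channel (1.97 in Th1, -0.80 in Th2), had their higher changes without IL-4, and Tent5a (-0.46 in Th0, 1.37 in Th2) with it. Averaged over the cultures, Sln, Aqp9, and Tent5a were not called.

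Of the listed genes, 4 HIF-1 targets had a lower change with IL-4. P4ha2 changed by 2.24 in Th0, 2.11 in Th1, 0.97 in Th2, and 0.53 in Th1/2 hybrid cells (difference -1.42, SE 0.21, adjusted p = 0.031), and Egln1, the oxygen sensor of HIF, by 0.67 in Th0, 0.91 in Th1, 0.05 in Th2, and 0.34 in Th1/2 hybrid cells (difference -0.60). Pdk1 and Car12 differed by -0.69 and -1.07. The interferon-induced genes Isg15 and Gbp5 fell more without IL-4, with -1.48 in Th0, -1.47 in Th1, -0.32 in Th2, and -0.74 in Th1/2 hybrid cells for Isg15 and -1.55 in Th0, -1.75 in Th1, -0.06 in Th2, and -0.52 in Th1/2 hybrid cells for Gbp5 (differences 0.94 and 1.36). The adjusted p was 0.044 for Isg15 and 0.00895 for Gbp5.

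**Figure D4:**
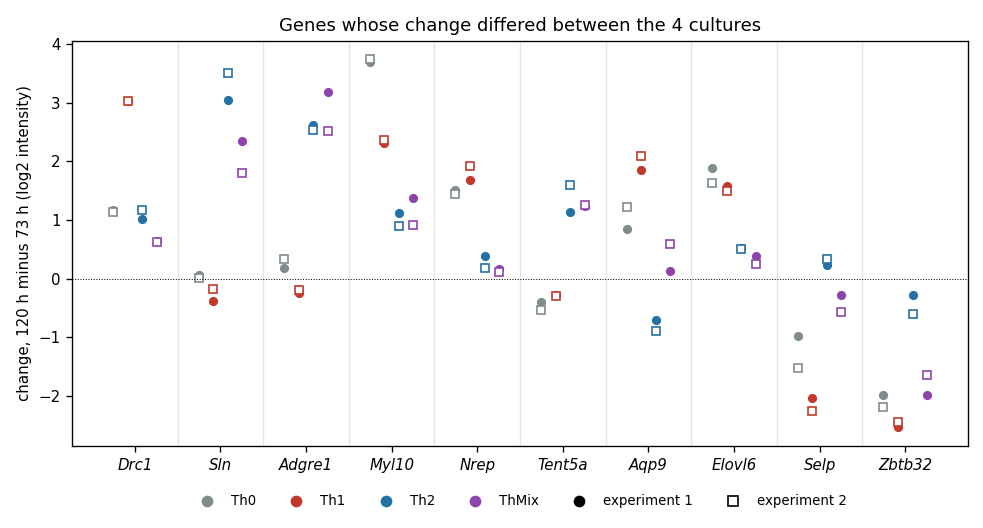
Change from 73 h to 120 h (vertical axis, log2 intensity) of the 10 genes named for their difference between cultures, with a point for each pair, coloured by culture, filled for experiment 1 and open for experiment 2. Sln and Adgre1 lie high in Th2 and Th1/2 hybrid cells (ThMix) and near 0 in Th0 and Th1 cells, and Drc1 lies highest in Th1 cells.

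The arrays at 96 h divide the interval into steps of similar length. From 73 h to 96 h, 1182 genes rose (8.55%) and 1642 fell (11.9%), and from 96 h to 120 h, 325 rose (2.35%) and 488 fell (3.53%). This order turned with experiment 2 alone, where 627 rose and 759 fell over the first step and 647 rose and 892 fell over the second. The change over the later step was above that over the earlier for 236 genes (1.71%) and below it for 322 (2.33%). The array of Th0 cells at 96 h in experiment 2 stood apart from its group, and without it 484 genes were above.

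For most lists few genes passed the test of the difference between steps, which 558 of all 13817 genes passed. DNA replication had a median of -0.48 over the first step and -0.13 over the second, and the steps differed for 5 of its 41 genes, Gins2, Tyms, Cdc45, Orc6, and Rpa2. Tyms changed by -0.82 and then -0.07, and Gins2 by -0.70 and -0.19. Ribosome biogenesis had medians of -0.34 and -0.02, the respiratory chain of -0.20 and -0.02, and HIF-1 targets of 0.24 and 0.03, with 0 of 30, 1 of 40, and 3 of 20 genes passing. TCR-induced early genes had medians of -0.01 and 0.56, and Egr1 was the 1 of 26 that passed. Egr1 changed by -0.09 and then 4.36, a difference of 4.45 (SE 0.74, adjusted p = 0.0018). At the other end, Rab5b, a GTPase of early endosomes, changed by 0.40 and then -1.36, Klf3 by 0.44 and -1.03, Cstf3, a factor of mRNA 3′ end cleavage, by 0.28 and -1.18, Dido1 by 0.36 and -1.09, and 9130020K20Rik by 0.44 and -1.20.

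**Figure D5:**
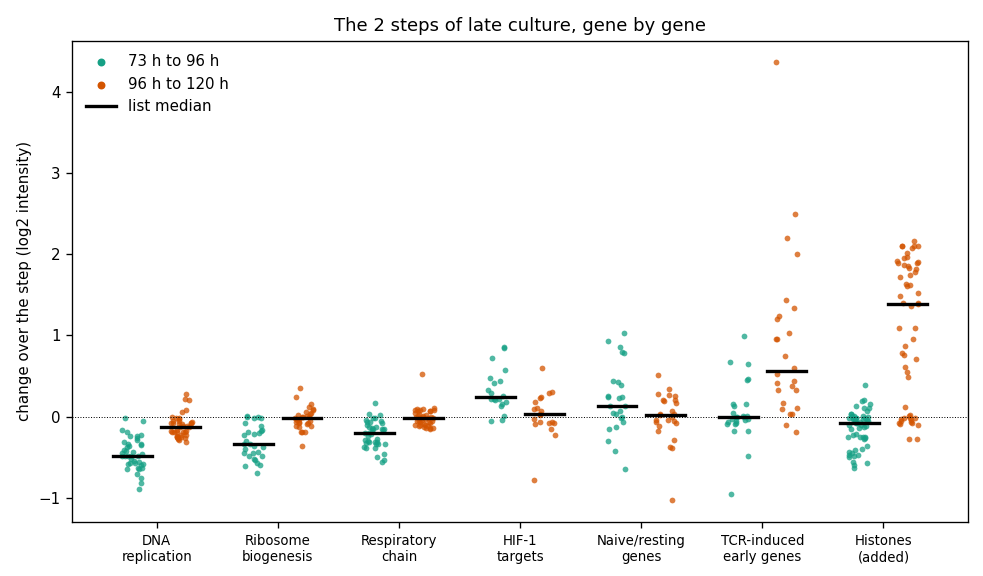
Change of each gene over the step from 73 h to 96 h (green) and from 96 h to 120 h (orange), on the log2 scale (vertical axis), in 7 lists (horizontal axis), with list medians as black bars. The DNA replication median is -0.48 in the first and -0.13 in the second step, and histone genes move from -0.08 to 1.39.

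Histone genes were among the largest rises, and a list of them was added after these were seen. Of 55 replication-dependent histone genes, whose mRNAs mostly end in a stem-loop without poly(A), 37 rose (67.3%, against 12.1% of all genes) and 5 fell. Their median change was 1.28. The kit used here primes on poly(A). H4c6 had levels from 8.75 to 9.41 (median 9.09) at 73 h and from 9.87 to 12.33 (median 11.15) at 120 h, without overlap, and rose by 2.11 ± 0.24 (adjusted p = 1.4e-04). H4c12 rose by 2.11 ± 0.24, H4c1 by 2.01 ± 0.23, H2ac19 by 1.99 ± 0.13, H1f5 by 1.95 ± 0.23, and H4c18 by 1.92 ± 0.23. The median was 1.75 in experiment 1 and 0.68 in experiment 2, and -0.08 over the first step and 1.39 over the second, during which 38 genes rose. H2bc21, H3c6, H3c1, and H3c7 had the largest later-step differences after Egr1, at 2.67, 2.62, 2.59, and 2.53. H2ac8, H2ac21, H2ac11, H2ac15, and H2ac12 fell, by 0.56 ± 0.08 for H2ac8. Copies of a histone gene are near identical, so their probes may share signal and are not separate evidence. Slbp, which binds the stem-loop, did not pass the filter on dim probes.

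Outside these lists, the largest rises among genes up in all 8 pairs were Stc1 (2.41 ± 0.16), the hormone stanniocalcin, Trgv4 (2.12 ± 0.17), a gamma TCR segment, Myl10 (2.05 ± 0.34), Zbtb2 (2.01 ± 0.27), and Nav1 (1.90 ± 0.21). Stc1 had levels from 7.29 to 9.87 (median 8.26) at 73 h and from 9.31 to 12.16 (median 11.15) at 120 h, and Trgv4 levels from 6.41 to 7.60 (median 6.76) at 73 h and from 7.95 to 10.14 (median 9.08) at 120 h. Trgv4 did not overlap between the times, whereas Stc1 did. The largest falls were those of Tg (-2.64), the thyroglobulin gene, Zbtb32 (-1.71), Rbm3 (-1.52), an RNA-binding gene induced by cold, and Dmwd (-1.51). Tg had levels from 9.44 to 12.02 (median 11.00) at 73 h and from 6.96 to 9.50 (median 8.27) at 120 h and fell by 2.64 ± 0.18 (adjusted p = 1.5e-05). Its arrays overlapped by a narrow margin, with all 8 pairs down. Rbm3 had levels from 8.47 to 8.97 (median 8.76) at 73 h and from 6.67 to 7.83 (median 7.08) at 120 h, without overlap. The other 10 of the largest falls lay between -1.34 for 6030458C11Rik and -1.07 for Wdr78, and included the amino acid transporter gene Slc7a3 (-1.16), the recombination gene Rad54l (-1.09), and Mlkl (-1.08), the effector of necroptosis.

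Markers of T cells were present on all arrays. All 7 measured T cell markers lay above the median of all values on all 16 arrays, and their summed intensity ranged from 75290 to 109900 at 73 h and from 86860 to 114500 at 120 h. Of 7 macrophage and monocyte markers, 0 did so on all 16 arrays, and their sum ranged from 667 to 906 at 73 h and from 635 to 2517 at 120 h, and Adgre1 was the member that rose. The part of these cells in the rise of Adgre1 was not tested. On all 16 arrays, 2 of 4 B cell, 1 of 4 dendritic cell, 1 of 6 granulocyte and mast cell, and 1 of 3 stroma markers lay above that median. For NK cells this held for 0 of 1 and for erythrocytes and platelets for 0 of 2. The B cell marker Cd79b fell by 0.39 ± 0.11, and the dendritic cell marker Siglech rose by 0.38 ± 0.08. Cd8b1, the CD8 marker measured, had intensities from 3901 to 6267 at 73 h and from 3594 to 4806 at 120 h and changed by -0.22 ± 0.10 (adjusted p = 0.12). Its part in the change of cytotoxic genes was not tested. Array medians lay between 107.7 and 110, and the arrays of a culture and time correlated with r between 0.984 and 0.993. The precision is limited by 8 pairs from 2 experiments. The median SE was 0.06, which takes the pairs as independent.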

How the data were processed

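RNA was amplified from oligo(dT) priming and hybridised to Illumina mouse arrays, 74 in all. The deposited values are linear intensities, which the authors had background-corrected and quantile-normalized, and log2 was taken of them. Probes whose mean in at least 1 of 37 conditions exceeded the median of all log2 values (6.767) were kept, and the brightest probe stood for a gene. Of 45135 probes, 34773 named 1 symbol, 18 several, and 10344 none; 23115 passed and gave 13817 genes. The change was fitted with limma 3.58.1 (R 4.3.3) with each pair as a block, with Benjamini-Hochberg adjustment over all genes. Samples were paired by culture and experiment number, as the comparison was defined. As a check, the deviations of same-numbered samples from the group means were correlated between 73 h and 120 h (r = 0.365 in Th0, 0.464 in Th1, 0.166 in Th2, 0.25 in Th1/2 hybrid cells). Labels do not state separate animals for the experiments, so p-values measure the spread between these samples. The scripts were tested on simulated data. Groups came from the sample labels. Members, gene lists, and named genes were chosen with earlier results of these data known. Named are the 15 largest called changes each way that were shared by all pairs, up to 5 called genes of each list each way and its defining members, the 10 genes differing most between cultures, and the 5 differing most between steps each way. Other members are named for their role or promoter. Alternatives covered blocking, scaling, filters, probe choice, and left-out arrays.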

Additional observations from a re-analysis of the deposited data

Results flagged for a closer look

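For 7 of the 212 named genes tested (3.3%), 1 of the 8 pairs lay far from the other 7, where chance gives about 1 in 20. Tg changed by -1.34 in Th2 cells of experiment 1 and by -3.46 to -2.48 in the other pairs. In the same pair Mxd4 changed by 0.15 (others 0.79 to 1.36), Rplp0 by -0.89 (others -0.43 to -0.15), and Sdf2l1 by -0.0629 (others -1.38 to -0.82). Phgdh changed by -1.04 in Th2 cells of experiment 2 (others -0.65 to -0.34), Cd4 by -0.11 in Th0 cells of experiment 2 (others 0.25 to 0.53), and H2ac12 by -0.0273 in Th1 cells of experiment 2 (others -0.49 to -0.28). That pair of Th2 cells in experiment 1 held 4 of the 7, and its part in other results was not tested.

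The change from 73 h to 120 h differed between the cultures, by limma's F-test of culture by time with Benjamini-Hochberg adjustment, for Drc1, Sln, and Adgre1 (adjusted p = 0.0043 each), Myl10 (0.0048), Nrep, Tent5a, and Aqp9 (0.015 each), and Elovl6, Selp, and Zbtb32 (0.024 each).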

How the results depend on the processing

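Of the 212 named genes tested, none reversed its direction under the 18 alternatives. Changing the block, averaging within an experiment, or changing the eBayes settings leaves each mean change as it was, so no reversal could appear there. Genes named for a change shared by all pairs also could not reverse when an experiment or a culture was left out. The absence of reversals is therefore no test of stability in those cases. Between 202 and 212 of the named genes kept their call under other scalings, filters, probe choices, and eBayes settings. Without replicate 1, 171 kept it, and without replicate 2, 120. With the changes averaged within an experiment, where 2 values remain, 0 kept it. That average gave 0 genes rising, 0 falling, 0 replication genes falling, and 0 resting genes rising. Leaving out an experiment gave 825 to 1774 genes rising and 1044 to 2703 falling from 73 h to 120 h, 627 to 826 rising and 759 to 1094 falling from 73 h to 96 h, 120 to 647 rising and 113 to 892 falling from 96 h to 120 h, and 138 to 246 genes with the later change below the earlier. Without the Th0 array at 96 h of experiment 2, 484 lay above.

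With no replicate block, the pairing was dropped and 1460 genes rose and 2340 fell. Without it, 5 genes differed between cultures, 143 rose in Th2 and 179 in Th1/2 hybrid cells, 29 had a higher change with IL-4, 192 rose and 322 fell from 96 h to 120 h, and the later change was above the earlier for 105 genes and below for 167. With all 74 arrays in the fit, 105 genes differed between cultures, 310 rose and 463 fell in Th0, 366 rose and 485 fell in Th2, 550 fell in Th1/2 hybrid cells, and the IL-12 contrast was higher for 5 and lower for 6. With trend and robust estimation 43 genes differed between cultures. The cause of these shifts was not tested. The tests within a culture and of culture by time leave no residual degrees of freedom without a replicate and were not run. The precision is limited by 2 experiments, and array intensity near the filter limits dim genes.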
